A study of Mus musculus with 24 samples.

Results

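The genes examined here carry glucose from the outside of the β-cell to the closing of its ATP-sensitive potassium channel. They were the 6 genes Slc2a2, Slc2a1, G6pc2, G6pc3, Pcx and Abcc8, chosen by name as genes of glucose uptake, glucose phosphorylation, anaplerosis and the sulfonylurea receptor. Of these 6, 5 had a row among the 12310 genes of the count table, and G6pc2 was not analysed here. RNA sequencing was performed on MIN6 cells, a mouse insulinoma line that secretes insulin in response to glucose and that the labels give as wild type. Cells were treated with verapamil (50 µM; 24 h) in 12 libraries and left untreated (control) in the other 12, after culture in 5.6 mM glucose in both groups. The labels name no vehicle for the control. Each group came from 4 experiment sets with 3 libraries each. All values below compare verapamil-treated cells with control cells of this single line.

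In the β-cell, glucose enters through facilitative transporters of the SLC2A (GLUT) family and is then phosphorylated, the step that commits it to glycolysis. Pyruvate from glycolysis then enters the mitochondrion, where it is either oxidised or carboxylated by pyruvate carboxylase to refill the citric acid cycle. The rise in the ATP to ADP ratio closes the ATP-sensitive potassium (K-ATP) channel, built of the sulfonylurea receptor SUR1 and the pore subunit Kir6.2, so that the membrane depolarises and voltage-gated calcium channels open. Verapamil blocks the L-type class of these calcium channels.

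Slc2a2 encodes GLUT2, the main glucose transporter of rodent β-cells, and Slc2a1 encodes GLUT1, which is found in most cell types. Slc2a2 was the member that fell, and Slc2a1 is its counterpart in glucose uptake, so the promoters of both are shown. Each line holds 250 bases before and 50 bases from the transcription start, 5′ to 3′ on the plus strand, from RefSeq on GRCm38.p6. Capitals mark the matches to the motifs searched on both strands.
Slc2a2, chr3:28697653-28697952: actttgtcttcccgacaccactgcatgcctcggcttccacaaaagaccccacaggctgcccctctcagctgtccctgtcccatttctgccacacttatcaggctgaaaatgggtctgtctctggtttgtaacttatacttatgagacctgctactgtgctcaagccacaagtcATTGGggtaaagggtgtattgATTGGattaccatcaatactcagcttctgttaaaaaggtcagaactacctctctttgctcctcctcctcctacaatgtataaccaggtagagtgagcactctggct
Slc2a1, chr4:119108495-119108794: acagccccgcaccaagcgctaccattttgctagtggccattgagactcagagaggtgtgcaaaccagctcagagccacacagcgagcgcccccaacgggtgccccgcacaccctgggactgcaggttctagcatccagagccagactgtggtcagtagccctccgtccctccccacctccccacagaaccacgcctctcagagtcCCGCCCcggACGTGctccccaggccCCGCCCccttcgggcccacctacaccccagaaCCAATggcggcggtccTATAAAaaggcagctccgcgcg

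The Slc2a2 promoter held 48.0% G and C bases, which is above 32.0% of the promoters of that length in the table, and the Slc2a1 promoter held 65.3%, above 82.3% of them, where the median was 52.7%. In Slc2a2, the CCAAT box (CCAAT) was matched on the minus strand at positions -77 and -56 from the transcription start and no other motif was matched. In Slc2a1, the GC box (GGGCGG) was matched on the minus strand at -45 and -20, the core of the hypoxia element (ACGTG) at -36, the CCAAT box at 13 and the TATA box (TATAAA) at 29. Among 32851 promoters of 300 bases, 37.4% held CCAAT, 35.7% held GGGCGG, 19.6% held ACGTG and 13.6% held TATAAA. The other letters searched were the E-box CACGTG (7.15% of promoters), which contains ACGTG, the PDX1-type core CTAATG (7.36%), the FOXA core TGTTTAC (3.65%) and the CRE-type site TGACG (20.8%). Of the 6 genes, 5 had an entry in the promoter table. A match is a description of these letters only, and no binding was measured.

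The libraries held 21840159 to 44806556 counts in verapamil-treated cells, against 12590476 to 32360171 counts in control cells. Levels are given as normalized counts (CPM, counts scaled to a common library total) after TMM normalization, and a gene was called at an adjusted p under 0.05 in edgeR's quasi-likelihood test over the 12306 genes tested. Under that test 62.8% of all genes were called, with 31.2% higher and 31.6% lower in verapamil-treated cells. The sources differ on whether the 12 libraries of a group are independent experiments or replicates within the 4 sets, and the p-values therefore reflect only how far these libraries vary, part of which may be technical. In the verapamil libraries, the deviation of a gene from the control mean moved with the GC content of its transcript. The correlation across genes ranged from 0.04 to 0.63 in verapamil libraries and from -0.18 to 0.16 in control libraries, with set means of 0.19, 0.54, 0.55 and 0.16 in verapamil sets 1 to 4. With transcript length the correlation ranged from -0.59 to -0.04 in verapamil libraries and from -0.13 to 0.13 in control libraries. Control libraries were set against their own mean, so their correlations centre near 0 by construction. Of 11 β-cell markers 10 were in the table, with a summed level of 7691 to 9791 CPM in verapamil libraries and 9178 to 11220 CPM in control libraries. Ins1 averaged 434 CPM in verapamil libraries and 485 CPM in control libraries, and Ins2 averaged 635 CPM and 1318 CPM in the same order. Iapp averaged only 1.21 CPM in verapamil libraries and 2.19 CPM in control libraries. The 10 markers did not move in a single direction. Chga, Iapp, Ins2, Pcsk1 and Slc30a8 were lower in verapamil-treated cells and Mafa was higher (log2 fold change 0.85). Ins1 (edgeR adjusted p = 0.31), Nkx6-1, Pcsk2 and Pdx1 did not pass the test. Markers of other cell types were few. Of the 3 alpha cell markers Gcg was in the table, at 176 to 333 CPM in verapamil libraries against 174 to 198 CPM in control libraries, and of the 3 endothelial markers Kdr was, at 7.18 to 18.1 CPM in verapamil libraries against 0.562 to 3.77 CPM in control libraries. All 3 neuron markers were in the table and summed to 191 to 415 CPM in verapamil libraries and 334 to 393 CPM in control libraries. Of 3 duct markers 2 were present, at 35.9 to 53.7 CPM in verapamil libraries against 34.8 to 44.2 CPM in control libraries. Of the 4 hepatocyte markers Fgb was present, at 3.97 to 7.59 CPM in verapamil libraries against 2.21 to 4.32 CPM in control libraries, and of the 4 fibroblast markers Pdgfra, at 0.0923 to 1.20 CPM in verapamil libraries against 0.670 to 1.45 CPM in control libraries. The markers of delta, PP and epsilon, acinar and immune cells had no row and were not analysed here. The part of other cell types in the results was not tested.

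Among the 5 genes measured, Slc2a2 fell in verapamil-treated cells and the other 4 did not pass the test, so that 1 of 5 was called where 62.8% of all genes were. DESeq2 gave the same call for each of the 5. Slc2a2 (ENSMUSG00000027690; GRCm38, chromosome 3, 28697903 to 28731359, plus strand) lay between 69.1 and 121.9 CPM in verapamil libraries, with a median of 99.9 CPM, against 150.5 to 238.1 CPM in control libraries, with a median of 164.1 CPM. The highest verapamil library was below the lowest control library, so the groups did not overlap, a separation in this direction that 5.18% of all genes tested showed. The mean was 95.9 ± 14.6 CPM in verapamil-treated cells and 171.5 ± 24.4 CPM in control cells (SD, n = 12 each). The log2 fold change was -0.84 (standard error 0.0835, 95% interval -1.01 to -0.67), and the level in verapamil-treated cells was 55.9% of that in control cells (edgeR adjusted p = 1.2e-08). Between 1535 and 4711 reads per verapamil library and 1874 to 6060 per control library stood behind these values. As these are bulk libraries, fewer cells that express a gene and less RNA per cell cannot be told apart.

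The fall of Slc2a2 was present in every experiment set. In set 1 the 3 verapamil libraries held 100.4 to 104.2 CPM, against 162.4 to 178.5 CPM in the control libraries. In set 2 they held 76.6 to 90.1 CPM, against 153.1 to 172.5 CPM in control libraries. The ranges were 69.1 to 107.3 CPM in verapamil and 150.5 to 193.9 CPM in control libraries of set 3, and 91.4 to 121.9 CPM in verapamil and 153.6 to 238.1 CPM in control libraries of set 4. In each set all 3 verapamil libraries were below all 3 control libraries, with log2 differences of -0.74, -0.96, -0.88 and -0.79 in sets 1 to 4. The interaction of set and treatment gave no difference between the sets that passed the test (adjusted p = 0.86, edgeR). With counts summed per set and group, the log2 fold change of Slc2a2 was -0.84 (edgeR adjusted p = 0.00049). With set 4 alone the adjusted p was 0.18 at a log2 fold change of -0.81, and in that set only 39 genes were called higher and 11 lower. By the size of its fall, Slc2a2 ranked 969 among the 12306 genes.

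The transcript of Slc2a2 is long and poor in G and C bases, and genes of that kind were lower on the whole in the verapamil libraries. Its GC content of 41.7% lies at the 10.0 percentile of the genes and its length at the 82.4 percentile. A trend on GC content and length fitted across the genes of each library gave a log2 difference of -0.55 for a transcript of this kind. With that trend removed the log2 fold change was -0.29 (adjusted p = 0.0048, edgeR), and with the library slopes on GC content and length as covariates it was -0.59 (adjusted p = 5.3e-06). Over all genes the median log2 fold change was -0.08 with the trend removed, 0.03 with the covariates and 0.00 without either. The slopes differ between the groups, with a variance inflation of 1.99 for the treatment term, so that the treatment and the slopes can be told apart only in part. Slc2a2 thus remained lower under each fit, with a size that depended on the fit.

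**Figure D1:**
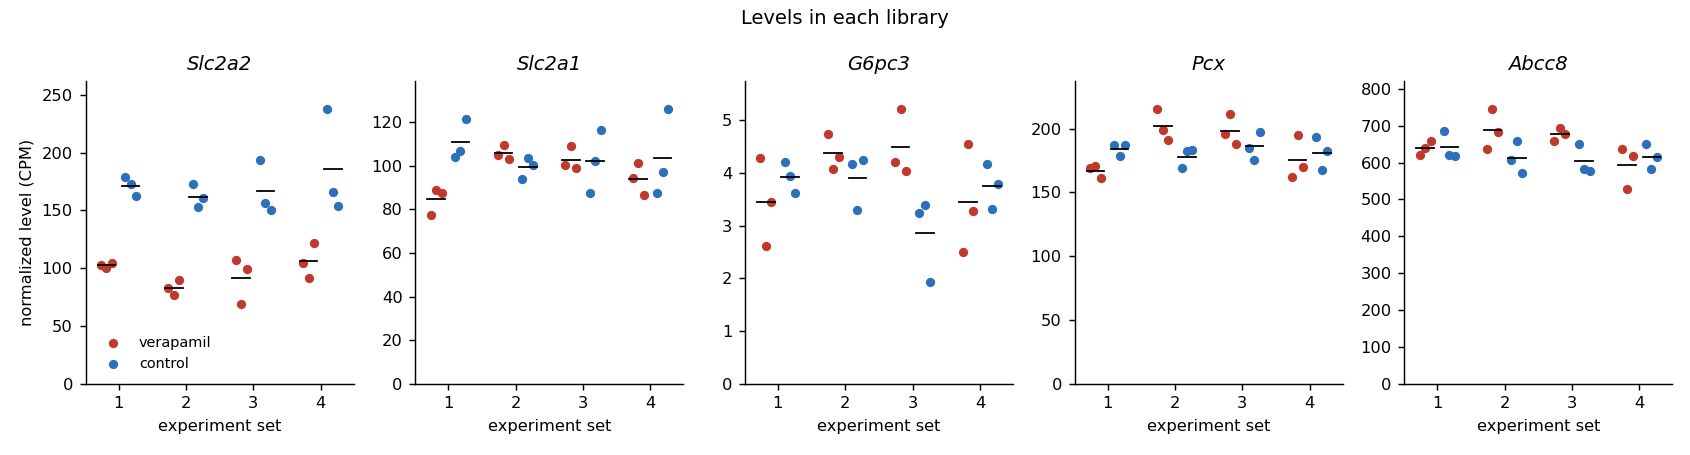
Normalized level (CPM, linear axes from 0) of the 5 measured genes in each library, by experiment set; red points are verapamil libraries, blue points control libraries and bars the means of 3 libraries. Slc2a2 separates the groups in all 4 sets, at 69.1 to 121.9 CPM in verapamil libraries and 150.5 to 238.1 CPM in control libraries. In the other 4 genes the groups overlap over all sets together, though not within every single set.

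Slc2a1 (ENSMUSG00000028645; chromosome 4, 119108711 to 119137983, plus strand) did not pass the test. Its level was 77.4 to 109.8 CPM in verapamil libraries, with a median of 99.7 CPM, against 87.4 to 126.3 CPM in control libraries, with a median of 103.0 CPM. The groups overlapped, and 2 verapamil libraries lay below every control library. The mean was 96.9 ± 9.96 CPM in verapamil-treated cells and 104.0 ± 12.4 CPM in control cells (SD, n = 12 each), with a log2 fold change of -0.10 (standard error 0.0658, 95% interval -0.24 to 0.03, edgeR adjusted p = 0.18). The bounds of this interval are 84.8% and 102% of the control level. Slc2a1 shares 105 exon bases with the antisense gene Gm12868, and the sources used here do not state the strand setting of the counting.

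The experiment sets gave different values for Slc2a1. In set 1 all 3 verapamil libraries (77.4 to 88.9 CPM) were below all 3 control libraries (104.1 to 121.6 CPM), with a log2 fold change of -0.40 and an edgeR adjusted p of 0.0057 in that set alone. In set 2 the verapamil libraries held 103.0 to 109.8 CPM and the control libraries 94.2 to 103.6 CPM, and the fitted log2 fold change was 0.08. In set 3 the level was 99.1 to 108.9 CPM in verapamil libraries and 87.4 to 116.4 CPM in control libraries, and in set 4 it was 86.5 to 101.5 CPM in verapamil libraries and 87.5 to 126.3 CPM in control libraries. The difference between the sets had an unadjusted p of 0.045 and an adjusted p of 0.18 in edgeR's interaction test, and 9.72% of all genes passed that test at the adjusted threshold. Of the 5 genes none did, and Slc2a1 and Pcx had an unadjusted p under 0.05. The trend on GC content and length fitted to these libraries gave 0.23 for a transcript like that of Slc2a1. With the trend removed, Slc2a1 was lower in verapamil-treated cells at a log2 fold change of -0.34 (adjusted p = 2.5e-05, edgeR), and with the slopes as covariates at -0.28 (adjusted p = 0.0039). The call of Slc2a1 therefore depended on whether this trend was taken into account.

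Of 13 genes of glucose transporters, 6 were tested, of which 1 rose and 2 fell, while 3 were not called, where 62.8% of all genes were called. The median log2 fold change of the 6 was -0.13, against 0.00 over all genes. With the covariates Slc2a1, Slc2a2 and Slc2a4 were lower and the other 3 were not called. Slc2a6, which encodes the hexose transporter GLUT6 of intracellular membranes, was higher at 29.0 ± 4.61 CPM in verapamil-treated cells, against 22.0 ± 2.41 CPM in control cells (SD, n = 12 each; log2 fold change 0.40, edgeR adjusted p = 0.00018), but its value was 0.12 with the slopes as covariates (adjusted p = 0.24). The other gene that fell was Slc2a4, which encodes the insulin-responsive transporter GLUT4 of muscle and fat and was named after its values were seen, since its mean over both groups is under 5 CPM. It held 3.55 ± 0.770 CPM in verapamil-treated cells and 6.33 ± 0.620 CPM in control cells (SD, n = 12 each), with all 12 verapamil libraries below every control library (log2 fold change -0.83, edgeR adjusted p = 4.6e-07). Of all genes tested, 5.18% showed a separation in this direction. The fall of Slc2a4 was -1.07 with the trend removed and -0.98 with the covariates. Slc2a8 and Slc2a13 were low in both groups and did not pass the test.

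Levels of both transporters were also set against each other within each library. Per kilobase of exons, Slc2a1 over Slc2a2 ranged from 1.16 to 2.59 in verapamil libraries, with a median of 1.59, against 0.603 to 1.35 in control libraries, with a median of 1.02. The ratio was higher than in every control library in 10 of the 12 verapamil libraries, and its mean was 1.72 ± 0.442 in verapamil-treated cells and 1.02 ± 0.214 in control cells (SD, n = 12 each). The ratio is a description of the same counts and was not tested again. The trend on GC content and length gave a log2 difference of -0.55 for Slc2a2 and 0.23 for Slc2a1, in opposite directions, and thus moved with the ratio. With that trend removed the log2 fold changes were -0.29 for Slc2a2 and -0.34 for Slc2a1, so the fall was then not larger in Slc2a2, whereas with the covariates they were -0.59 and -0.28. Its size depends on the length used: with coding lengths the median was 1.03 in verapamil libraries and 0.663 in control libraries.

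Within a group, libraries with more Slc2a1 had less Slc2a2. The correlation of the deviations of log2 CPM from the group mean was -0.72 over the 24 libraries, with -0.74 in verapamil libraries and -0.71 in control libraries. This was not particular to the pair, as Slc2a2 correlated at -0.73 with Pfkl and at -0.73 with Egln1. With other genes the correlation was positive, as with Neurod1 (0.69). Slc2a2 reached its highest control value, 238.1 CPM, in the set 4 library where Slc2a1 was at 87.5 CPM. In the verapamil library with the lowest Slc2a2, 69.1 CPM in set 3, Slc2a1 was at 108.9 CPM. The points share a library and hence its depth and base composition, and no p is given.

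**Figure D2:**
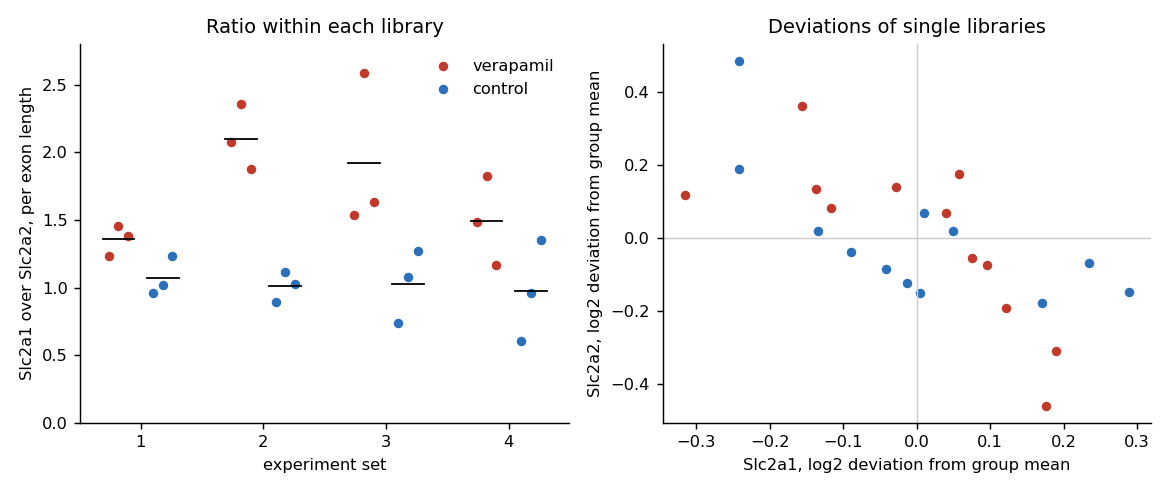
Left, Slc2a1 over Slc2a2 per kilobase of exons within each library by experiment set (no unit, linear axis from 0; bars are means of 3 libraries); right, deviation of each library from its group mean in log2 CPM for both genes. Red is verapamil and blue control; 10 of 12 verapamil ratios lie above every control ratio, and the deviations of both genes run in opposite directions in either group.

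The glucose-6-phosphatases act against glucose phosphorylation by returning glucose-6-phosphate to glucose. G6pc2, the catalytic subunit found in islets (chromosome 2, 69211073 to 69227841), was not analysed here. G6pc3, the catalytic subunit found in most tissues (ENSMUSG00000034793; chromosome 11, 102189620 to 102194081, plus strand), was the lowest of the 5 genes. It held 2.49 to 5.22 CPM in verapamil libraries, with a median of 4.13 CPM, against 1.93 to 4.24 CPM in control libraries, with a median of 3.71 CPM. The groups overlapped, although 5 verapamil libraries were above every control library. The mean was 3.93 ± 0.826 CPM in verapamil-treated cells and 3.61 ± 0.655 CPM in control cells (SD, n = 12 each), and the log2 fold change of 0.11 (standard error 0.121, 95% interval -0.14 to 0.36) did not pass the test (edgeR adjusted p = 0.42).

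G6pc3 rested on 54 to 156 reads in verapamil libraries and 24 to 136 reads in control libraries, and the library with 24 reads was the control library of set 3 with the lowest total count of all. In set 3 the verapamil libraries held 4.03 to 5.22 CPM against 1.93 to 3.40 CPM in control libraries. Without set 3 the log2 fold change was -0.05. In sets 1, 2 and 4 the log2 differences were -0.21, 0.17 and -0.16, so no common direction was seen. With the trend on GC content and length removed the value was -0.31 (adjusted p = 0.014, edgeR), and with the covariates -0.20 (adjusted p = 0.32).

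Of 8 genes of glucose phosphorylation and glucose-6-phosphate hydrolysis 2 were tested, G6pc3 and Slc37a4, and Slc37a4 was higher, where 31.2% of all genes were. Slc37a4, the transporter that brings glucose-6-phosphate into the endoplasmic reticulum, averaged 53.2 ± 7.49 CPM in verapamil-treated cells and 47.8 ± 2.67 CPM in control cells (SD, n = 12 each; log2 fold change 0.15, edgeR adjusted p = 0.040), and its direction turned with the trend removed (-0.18, adjusted p = 0.0024). With counts summed per set and group, Slc37a4 did not pass the test (edgeR adjusted p = 0.17).

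Pcx (ENSMUSG00000024892; chromosome 19, 4510472 to 4621752, plus strand) encodes pyruvate carboxylase. Its level was 161.2 to 215.7 CPM in verapamil libraries, with a median of 189.4 CPM, against 167.7 to 197.6 CPM in control libraries, with a median of 182.7 CPM. The verapamil libraries reached beyond the control libraries on both sides, with 2 below every control library and 3 above. The mean was 185.7 ± 18.8 CPM in verapamil-treated cells and 182.4 ± 8.83 CPM in control cells (SD, n = 12 each), with a log2 fold change of 0.03 (standard error 0.0491, 95% interval -0.07 to 0.13) that did not pass the test (edgeR adjusted p = 0.66). The coefficient of variation was 10.1% in verapamil libraries and 4.84% in control libraries.

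The verapamil libraries of Pcx differed between the experiment sets, although the interaction of set and treatment did not pass the test. In set 1 the verapamil libraries (161.2 to 171.0 CPM) were all below the control libraries (178.5 to 187.4 CPM), and in set 2 they (190.9 to 215.7 CPM) were all above them (169.2 to 182.9 CPM). In set 3 the level was 188.0 to 211.8 CPM in verapamil libraries and 175.5 to 197.6 CPM in control libraries, and in set 4 it was 161.9 to 195.3 CPM in verapamil libraries and 167.7 to 193.4 CPM in control libraries. The log2 differences were -0.14, 0.18, 0.09 and -0.05 in sets 1 to 4. The interaction had an unadjusted p of 0.041 and an adjusted p of 0.17 in edgeR's test, and an adjusted p of 0.45 with the trend removed. Sets 2 and 3 were also those in which the verapamil libraries deviated most with GC content. With sets 2 and 3 alone Pcx was higher at 0.14 (adjusted p = 0.019), whereas with the trend removed it was lower at -0.19 (adjusted p = 0.00026), and with the covariates lower at -0.15 (adjusted p = 0.0041), all in edgeR. The sign of the Pcx difference thus depended on the libraries and on the fit.

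Of 23 genes of pyruvate entry and anaplerosis, 21 were tested, and 8 were higher, 7 were lower and 6 were not called, where 31.2% of all genes were higher and 31.6% lower, with a median log2 fold change of -0.01, against 0.00 over all genes. With the covariates 2 were higher and 7 lower. Slc25a1, the mitochondrial citrate carrier that exports citrate to the cytosol, was higher in all 12 verapamil libraries than in any control library, with 129.6 ± 21.4 CPM in verapamil-treated cells and 75.0 ± 4.12 CPM in control cells (SD, n = 12 each; log2 fold change 0.79, edgeR adjusted p = 2.2e-09). A separation in that direction was found for 4.95% of all genes. Mpc1, a subunit of the mitochondrial pyruvate carrier, was higher at 38.1 ± 5.05 CPM, against 28.8 ± 2.03 CPM in control cells (log2 fold change 0.40, adjusted p = 1.2e-05), and Mdh2, mitochondrial malate dehydrogenase, at a log2 fold change of 0.34 (adjusted p = 0.00042). Of these 3 genes, Slc25a1 and Mpc1 were also higher with the slopes as covariates (0.47 and 0.17), while Mdh2 was at -0.02.

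Pdk3, a kinase that inhibits pyruvate dehydrogenase, was lower in every verapamil library than in any control library, at 54.6 ± 3.57 CPM in verapamil-treated cells and 72.3 ± 3.75 CPM in control cells (SD, n = 12 each; log2 fold change -0.40, edgeR adjusted p = 2.4e-08). Separation in this direction was seen in 5.18% of all genes. The value of Pdk3 was -0.46 with the trend removed and -0.33 with the covariates. Pdha1, the E1 alpha subunit of pyruvate dehydrogenase, was lower at -0.57 (adjusted p = 0.0061), as was Gpd2, the mitochondrial glycerol-3-phosphate dehydrogenase, at -0.57 (adjusted p = 0.0027). With the covariates Pdha1 was at 0.11 and Gpd2 at -0.31 (adjusted p = 0.094), so neither call held there. The values with the trend removed were -0.49 for Pdha1 (edgeR adjusted p = 0.0053) and -0.32 for Gpd2 (edgeR adjusted p = 0.076). With counts summed per set and group, 6 genes of this list rose and 4 fell. Pdha1 and Gpd2 did not pass the test there (edgeR adjusted p = 0.089 and 0.073).

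Abcc8 (ENSMUSG00000040136; chromosome 7, 46104523 to 46180033, minus strand) encodes SUR1, the target of the sulfonylurea drugs, and had the highest CPM of the 5 genes. Its level was 529.6 to 746.6 CPM in verapamil libraries, with a median of 648.5 CPM, against 571.3 to 685.7 CPM in control libraries, with a median of 616.0 CPM. The groups overlapped, with 1 verapamil library below every control library and 2 above. The mean was 650.1 ± 52.4 CPM in verapamil-treated cells and 618.5 ± 36.9 CPM in control cells (SD, n = 12 each), with a log2 fold change of 0.07 (standard error 0.0447, 95% interval -0.02 to 0.16, edgeR adjusted p = 0.16). With 13194 to 29780 reads per verapamil library and 7195 to 21847 per control library, the bounds of this interval are 98.6% and 112% of the control level.

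The call of Abcc8 turned on the libraries used. It was higher in sets 2 and 3 alone (log2 fold change 0.17, edgeR adjusted p = 0.0096), where set 2 held 637.4 to 746.6 CPM in verapamil libraries and 571.3 to 659.4 CPM in control libraries, and set 3 held 658.6 to 695.2 CPM in verapamil libraries and 577.8 to 651.1 CPM in control libraries. In set 1 the level was 620.7 to 658.6 CPM in verapamil libraries and 617.3 to 685.7 CPM in control libraries, a log2 difference of 0.00. In set 4 it was 529.6 to 636.3 CPM in verapamil libraries and 581.5 to 651.4 CPM in control libraries, a log2 difference of -0.05. Leaving out the verapamil library of set 4 with 529.6 CPM brought the adjusted p to 0.040 at a log2 fold change of 0.09, and leaving out set 4 brought it to 0.034 at 0.11. The library with 529.6 CPM also had the strongest correlation with transcript length, at -0.59. The part of this in the Abcc8 value was not tested. With the trend on GC content and length removed the value was -0.09 (edgeR adjusted p = 0.078), where the median over all genes was -0.08.

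Kcnj11, which encodes the pore subunit Kir6.2 of the same channel, averaged 455.9 ± 30.9 CPM in verapamil-treated cells and 453.9 ± 20.0 CPM in control cells (SD, n = 12 each; log2 fold change 0.01, 95% interval -0.07 to 0.08, edgeR adjusted p = 0.89). Its value was -0.27 with the trend removed (adjusted p = 7.0e-05) and -0.09 with the covariates (adjusted p = 0.071). The ratio of Abcc8 to Kcnj11 per kilobase of exons was 0.529 to 0.748 in verapamil libraries, with a median of 0.654, against 0.561 to 0.685 in control libraries, with a median of 0.618, and overlapped. Abcc9 and Kcnj8, the subunits of the channel in smooth muscle, were not analysed here.

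**Figure D3:**
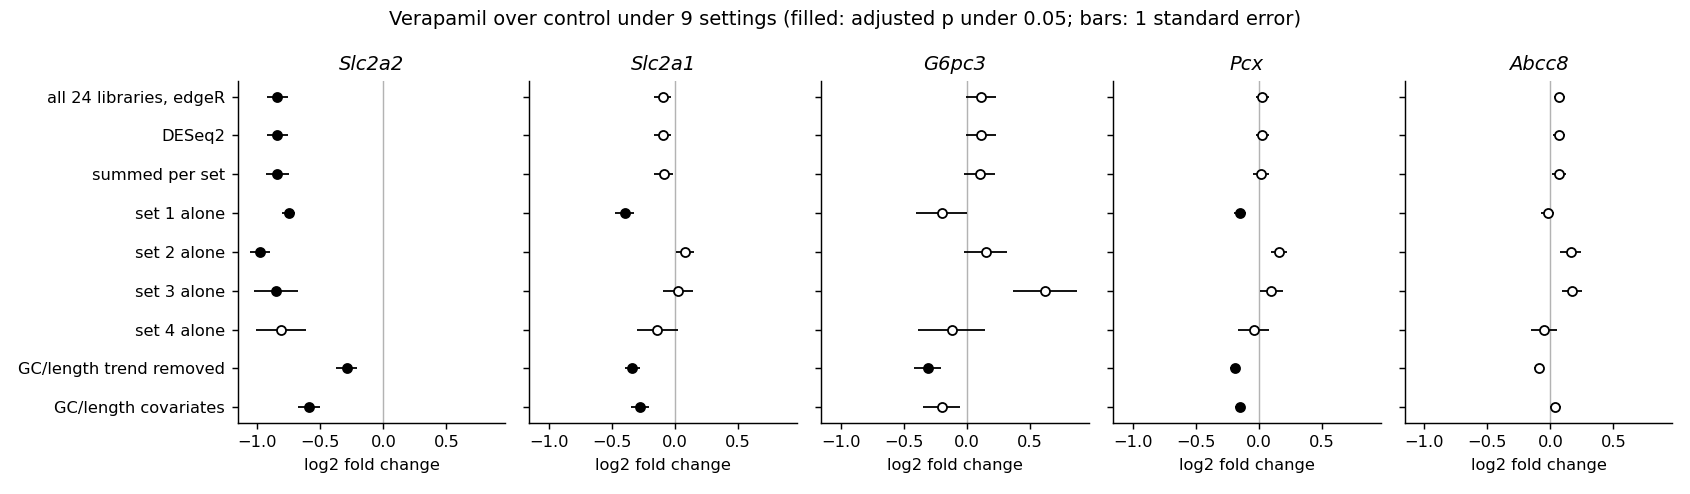
Log2 fold change of verapamil over control for the 5 genes under 9 settings; points are estimates, bars 1 standard error, and filled points have an adjusted p under 0.05. Slc2a2 lies below 0 in every panel row, between -0.98 and -0.29 and filled in all but set 4 alone, while the other 4 genes change side between settings.

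The levels of the genes of this chain differed widely when set against exon length. In CPM per kilobase of exons, Abcc8 was the highest of the 5 at 80.4 ± 6.48 in verapamil-treated cells and 76.5 ± 4.56 in control cells, and its partner Kcnj11 was at 124.0 ± 8.39 in verapamil-treated cells and 123.4 ± 5.44 in control cells. Pcx followed at 39.1 ± 3.96 in verapamil-treated cells and 38.4 ± 1.86 in control cells. Slc2a1 was at 27.6 ± 2.84 in verapamil-treated cells and 29.7 ± 3.52 in control cells, and Slc2a2 was at 16.7 ± 2.54 in verapamil-treated cells and 29.8 ± 4.24 in control cells (SD, n = 12 each throughout). In control cells the levels of both transporters therefore differed by less than their spread, and in verapamil-treated cells Slc2a2 was below Slc2a1. G6pc3 was the lowest in both groups, at 1.77 ± 0.371 in verapamil-treated cells and 1.62 ± 0.294 in control cells. The order of the transporters depends on the length, since per kilobase of coding sequence Slc2a2 was at 61.1 ± 9.32 in verapamil-treated cells and 109.3 ± 15.6 in control cells, and Slc2a1 at 65.6 ± 6.75 in verapamil-treated cells and 70.5 ± 8.37 in control cells.

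**Figure D4:**
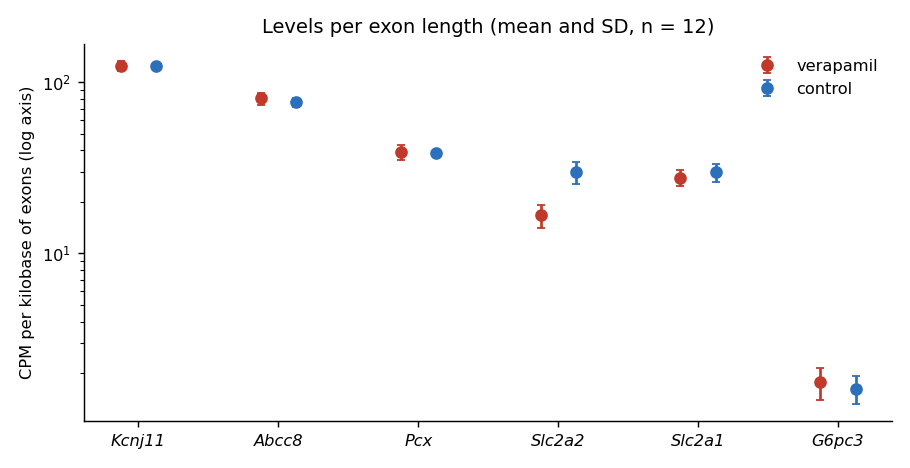
Mean level and SD (n = 12 libraries) in CPM per kilobase of exons, log axis, of the 5 genes with Kcnj11; red is verapamil and blue control. In each gene but Slc2a2 the means of both groups lie within the SD, and Slc2a2 is at 16.7 in verapamil-treated cells and 29.8 in control cells.

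The genes whose levels moved most like those of each member were sought among 7922 genes that averaged 5 CPM or more, by the correlation of deviations from the group means over the 24 libraries. For Slc2a2 they were Ubr3 (0.85), Scg2 (0.84) and Tmem215 (0.83). Scg2, which encodes the granule protein secretogranin II, was lower in verapamil-treated cells at a log2 fold change of -0.79 (edgeR adjusted p = 1.6e-09). Tmem215 was lower at -1.15 (edgeR adjusted p = 3.4e-13). Ubr3 did not pass the test at 0.15 (edgeR adjusted p = 0.24), so the closest gene within groups did not share the fall between them. For Slc2a1 they were Pfkl (0.87) and Pfkp (0.86), which encode the liver and platelet types of phosphofructokinase, and Rcor2 (0.85). Pfkl fell to 81.1 ± 10.3 CPM in verapamil-treated cells, against 105.6 ± 10.5 CPM in control cells (SD, n = 12 each; log2 fold change -0.38, adjusted p = 4.2e-05), and Pfkp was at -0.04 (adjusted p = 0.59).

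For Pcx the closest genes were Tbc1d9b (0.93), Slc35b2 (0.92) and Aplp1 (0.91), for Abcc8 Rrp12 (0.84), Lamb3 (0.82) and Smoc1 (0.82), and for G6pc3 Ints9 (0.80), Ccm2 (0.77) and Rpl13 (0.75). Among the members, Slc2a1 and Pcx had a correlation of 0.57, with 0.83 in verapamil libraries and 0.21 in control libraries. Abcc8 and Kcnj11, the subunits of a single channel, had 0.11. All of these correlations are over libraries that share depth and base composition, the closest genes were the highest of many, and no p is given.

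Regulators of the genes of this chain were called about as often as genes in general. Of 13 regulators tested, 3 were higher, 5 were lower and 5 were not called, where 31.2% of all genes were higher and 31.6% lower, with a median log2 fold change of -0.09, against 0.00 over all genes. With the trend on GC content and length removed, 3 were higher and 9 lower, and with the covariates 4 were higher and 3 lower. Among those that rose, Mafa, the β-cell activator of insulin and Slc2a2 transcription in the mouse, showed the largest change at a log2 fold change of 0.85. Nkx2-2, an islet homeodomain factor, was higher at 269.6 ± 23.0 CPM in verapamil-treated cells, against 175.2 ± 16.7 CPM in control cells (SD, n = 12 each; log2 fold change 0.62, edgeR adjusted p = 1.3e-09), with all 12 verapamil libraries above every control library. Such an upward separation was found for 4.95% of all genes. Foxa2, a forkhead factor, was higher at 329.0 ± 29.8 CPM in verapamil-treated cells, against 289.0 ± 13.6 CPM in control cells (SD, n = 12 each; log2 fold change 0.19, edgeR adjusted p = 0.0011), and its direction turned with the trend removed (-0.17, adjusted p = 0.0055). With the covariates Mafa and Nkx2-2 were higher, at 0.70 and 0.48, and Foxa2 was at 0.02 (adjusted p = 0.73).

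Neurod1, a basic helix-loop-helix factor of islets, fell to 306.6 ± 88.0 CPM in verapamil-treated cells, against 439.9 ± 17.3 CPM in control cells (SD, n = 12 each; log2 fold change -0.52, edgeR adjusted p = 0.00090). Pax6, a paired-box factor of islets, was lower at -0.35 (adjusted p = 0.00090). With the covariates neither passed the test, at -0.03 and -0.05. Both stayed lower with the trend removed, at -0.33 (edgeR adjusted p = 0.00044) and -0.32 (edgeR adjusted p = 0.0021). With counts summed per set and group, the edgeR adjusted p was 0.048 for Neurod1 and 0.059 for Pax6. Mlxipl, which encodes the glucose-responsive factor ChREBP, fell to 365.4 ± 62.6 CPM in verapamil-treated cells, against 488.4 ± 41.9 CPM in control cells (SD, n = 12 each; log2 fold change -0.42, adjusted p = 0.00012), and was at -0.16 with the covariates (adjusted p = 0.032). Txnip, a target of ChREBP, and Onecut1 were also lower and were named after their values were seen, since their means were under 5 CPM. Txnip was at 1.03 ± 0.386 CPM in verapamil-treated cells and 3.67 ± 0.698 CPM in control cells (SD, n = 12 each; log2 fold change -1.83, adjusted p = 1.8e-08). Onecut1 was at a log2 fold change of -0.78 (adjusted p = 0.010), at 0.10 with the covariates and at -0.80 with the trend removed (edgeR adjusted p = 0.0077). It did not pass the test with counts summed per set and group (edgeR adjusted p = 0.072). Pdx1, the homeodomain factor that activates Slc2a2 in the mouse, did not pass the test at -0.09 (95% interval -0.19 to 0.00, adjusted p = 0.089). It was lower at -0.42 with the trend removed (edgeR adjusted p = 1.4e-05) and at -0.15 with the covariates (edgeR adjusted p = 0.023).

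Slc2a1 is a known target of the hypoxia-inducible factor, and 9 of 13 hypoxia-responsive genes were tested. Of these 1 rose, 6 fell and 2, Slc2a1 among them, did not pass the test, where 62.8% of all genes were called and 31.6% were lower, with a median log2 fold change of -0.30, against 0.00 over all genes. Vegfa, the vascular endothelial growth factor, was lower at 853.3 ± 129.3 CPM in verapamil-treated cells, against 1193 ± 107 CPM in control cells (SD, n = 12 each; log2 fold change -0.48, edgeR adjusted p = 3.8e-06). P4ha1, a prolyl hydroxylase of collagen, was at -0.74 (adjusted p = 0.00038), and Bnip3, a mitophagy receptor, at -0.33 (adjusted p = 8.0e-06), of which Bnip3 did not hold with the trend removed (-0.02). Egln1, the oxygen-sensing prolyl hydroxylase, was the gene that rose (0.22, adjusted p = 0.0056), and with the covariates it was at -0.02. With the covariates 6 genes of the list were lower, Slc2a1 among them, and the other 3 were not called. Hif1a, a gene of the regulator list named after its values were seen, did not pass the test at -0.33 (edgeR adjusted p = 0.069). It was at 0.11 with the trend removed (edgeR adjusted p = 0.17) and higher with the covariates, at 0.30 (edgeR adjusted p = 0.00040). The deviations of Slc2a1 correlated with those of Pgk1 (0.79) and Egln1 (0.79), less with Bnip3 (0.60) and Pdk1 (0.56), and at -0.20 with Vegfa over the 24 libraries, so that single libraries did not vary in 1 direction over the list.

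Of 8 genes that the β-cell normally keeps low, 3 were tested. Mgst1, a microsomal glutathione transferase, was higher in all 12 verapamil libraries than in any control library, at 22.0 ± 2.44 CPM in verapamil-treated cells and 16.0 ± 1.18 CPM in control cells (SD, n = 12 each; log2 fold change 0.45, edgeR adjusted p = 8.8e-07). Over all genes, 4.95% separated in this direction. Oat, ornithine aminotransferase, was lower at -0.22 (adjusted p = 0.00027), and Smad3 did not pass the test (0.24, adjusted p = 0.079). With the covariates Smad3, a mediator of TGF-β signalling, was higher at 0.44 (adjusted p = 0.011), Mgst1 was at 0.27 and Oat at -0.25. With so few genes tested, these calls are read against the 62.8% of all genes that were called. The lactate and hexokinase genes of this list were not analysed here.

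**Figure D5:**
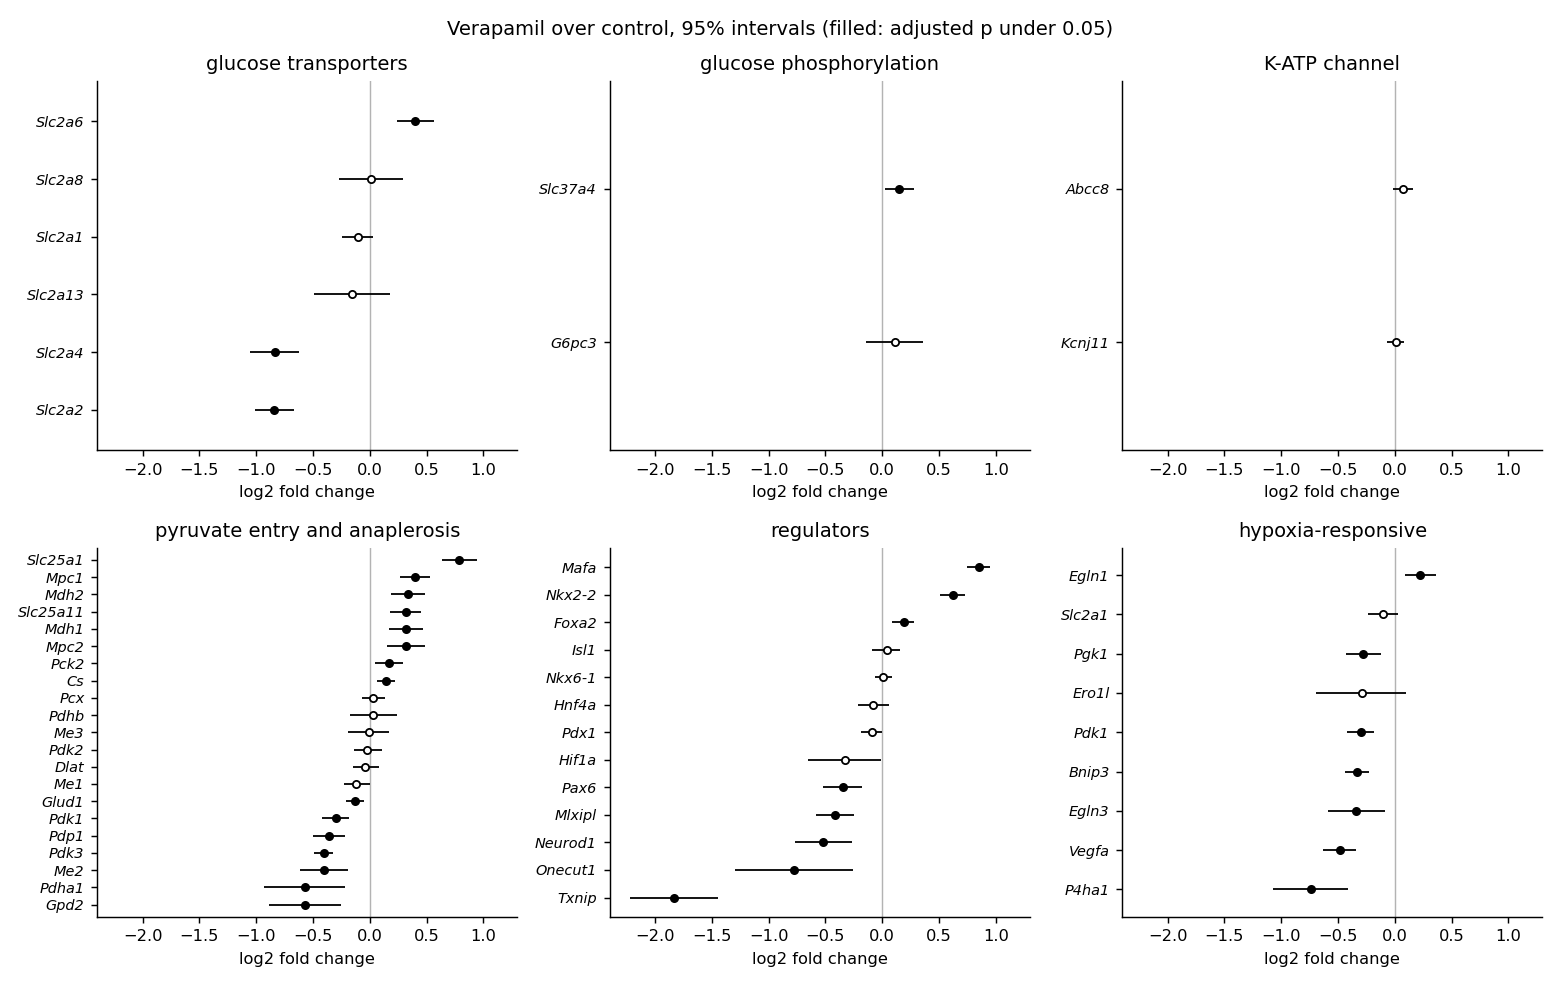
Log2 fold change of verapamil over control with 95% intervals for the tested genes of 6 lists; filled points have an adjusted p under 0.05. Slc2a2 and Slc2a4 lie at -0.84 and -0.83 at the lower end of the transporters, both K-ATP channel genes lie near 0, and the lists in the lower row hold filled points on either side of 0.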

How the data were processed

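Groups come from the sample labels, and the leading digit of each description label was read as the experiment set, an inference. The names of 4 columns fit more than 1 sample, and these were used as replicates without a number, placed in set 4 by elimination. The deposited values are raw read counts for each gene, made by the authors from paired-end reads with bcl2fastq 2.20, Trimmomatic 0.39, HISAT2 2.1.0 on GRCm38 and HTSeq 0.9.1, per the paper and the submitters' processing notes. The strand setting is not given in these sources, and the sources name different library kits. The deposited table also holds columns of the authors' own comparison, namely the mean log2 CPM, the fold change (ratio), the log2 fold change, p-values with and without adjustment, and a score on a log10 scale. These were not used. There were 0 further sample columns.

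The counts were tested with edgeR 4.0.16 in R 4.3.3 on all 24 libraries: TMM normalization after filterByExpr at a minimum count of 10 and a minimum total of 15, the quasi-likelihood test with treatment as its only term, and Benjamini-Hochberg adjustment over 12306 genes at 0.05. Standard errors were obtained from the log2 fold change and the F statistic. The precision at low levels is set by the reads per gene given beside them. Coordinates, lengths and GC contents came from GENCODE on GRCm38. Scripts were tested on simulated data. DESeq2 1.42.0 and the other alternatives are given in the closing section, and figures were drawn with matplotlib 3.10.9 in Python 3.11.15. Even the closest pair of libraries differed beyond sampling noise (lowest chi-square over its degrees of freedom 7.35 among verapamil libraries and 5.73 among control libraries), so all were counted separately.

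Named were the 6 members, Kcnj11, up to 3 genes per list and direction with the largest changes among called genes that averaged 5 CPM or more, and the 3 genes most like each member. The members and lists were chosen with earlier results of these data known. Some genes and motifs that had been considered are not reported here and were left out of the list counts. The proteomic, imaging and zebrafish experiments were not analysed here.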

Additional observations from a re-analysis of the deposited data

Results flagged for a closer look

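Of the groups of 4 experiment set values of each gene, that of Abcc8 in control cells stood apart. Set 1 held 643.3 CPM when its control counts were summed, against 613.1, 613.4 and 616.8 CPM in the other sets, so that its gap to the nearest set was 0.878 of the whole range. By chance, about 1 in 20 groups would stand apart in this way. In set 1 the verapamil libraries held 639.2 ± 19.0 CPM of Abcc8 and the control libraries 641.6 ± 38.3 CPM (SD, n = 3 each).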

How the results depend on the processing

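Slc2a2 was lower in all 21 alternatives other than leaving out single libraries, between -0.98 and -0.29 on the log2 scale, and passed the test in 20 of them; set 4 alone gave -0.81 (edgeR adjusted p = 0.18). Leaving out single libraries gave -0.87 to -0.79 for Slc2a2, -0.12 to -0.07 for Slc2a1, 0.06 to 0.16 for G6pc3, 0.00 to 0.04 for Pcx and 0.05 to 0.09 for Abcc8, with 3630 to 3942 genes higher and 3707 to 4023 lower. By set, Slc2a1 was at -0.40 in set 1, 0.08 in set 2, 0.02 in set 3 and 0.05 in sets 2 and 3 together. G6pc3 was at -0.20 in set 1, -0.12 in set 4, -0.05 without set 3, -0.16 in sets 1 and 4 and 0.37 in sets 2 and 3. Pcx was at -0.15 in set 1, -0.04 in set 4, -0.03 without set 2, 0.00 without set 3, -0.09 in sets 1 and 4 and 0.14 in sets 2 and 3. Abcc8 was at -0.02 in set 1, -0.05 in set 4, -0.03 in sets 1 and 4, 0.17 in sets 2 and 3, 0.11 without set 4, 0.14 with upper-quartile normalization (adjusted p = 0.029) and 0.09 without the verapamil library in the column V11. With the trend on GC content and length removed, Slc2a1 was at -0.34, G6pc3 at -0.31, Pcx at -0.19 and Abcc8 at -0.09; with the slopes as covariates Slc2a1 was at -0.28, G6pc3 at -0.20 and Pcx at -0.15, and with the replicate block by set added at -0.30, -0.26 and -0.15. The cause of these shifts was not tested. Over all genes the median log2 fold change was -0.08 with the trend removed and 0.03 with the covariates, against 0.00 without either.

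Over all genes 3836 were higher and 3890 lower, so 49.7% of the called genes were higher, a share of 38.3% with the trend removed (2632 higher, 4235 lower), 59.9% with the covariates, 60.4% with the covariates and the block, 58.6% with counts summed per set and 78.0% in set 4 alone. Fewer were higher in set 1 (1680), set 3 (2445), set 4 (39) and sets 1 and 4 (1653). Fewer were lower with summed counts (2124), in set 1 (1721), set 4 (11) and sets 1 and 4 (1482), without set 2 (2518), and with the covariates, without the block (1743) and with it (1731).

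The replicate block by set gave 3852 higher and 4073 lower with Slc2a2 at -0.84, and the block by replicate number 3651 and 3917 with Slc2a2 at -0.89; neither changed a call of the 5 genes. Of 10 same-numbered pairs 2 had deviations correlated over 0.1 (-0.05 to 0.11) and 1 correlated best with its own number, so the numbers were not taken to pair the libraries. Per kilobase of coding sequence, Slc2a2, Slc2a1, G6pc3, Pcx and Abcc8 were at 61.1, 65.6, 3.79, 52.5 and 136.5 CPM in verapamil-treated cells and at 109.3, 70.5, 3.48, 51.6 and 129.8 CPM in control cells. The depth limits G6pc3 most, at 24 to 156 reads per library.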
